A study of Mus musculus with 6 samples.

Results

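The genes for MARCKS, for its relative MARCKSL1 and for 7 isoforms of protein kinase C (PKC) were followed in clones of mpkCCD, an immortal line of mouse collecting duct cells from the renal cortex. The 9 genes were taken by symbol from a table of 20896 genes: Marcks, Marcksl1, Prkca, Prkcb, Prkcd, Prkce, Prkch, Prkci and Prkcz. All 9 were listed, and 8 passed the filter on low reads; Prkcb did not. The family was chosen by its symbols, with the measured expression difference of Marcks between the groups already known. The group differences of the 9 genes are therefore given as descriptions with intervals, and where members are counted among the genes called across the whole table, nothing is read from that count.

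MARCKS is an acylated protein that binds the inner face of the plasma membrane, phosphoinositides, calmodulin and actin filaments through a short basic region. PKC phosphorylates serines in that region, which releases the protein from the membrane. Classical PKC isoforms (alpha, beta) respond to calcium and diacylglycerol, a calcium-independent class (delta, epsilon, eta) responds to diacylglycerol alone, and atypical isoforms (iota, zeta) respond to neither and act in complexes that set apical polarity in epithelia. An autoinhibitory pseudosubstrate, which resembles a substrate with alanine where the phosphorylated residue would be, keeps a PKC isoform inactive until it is recruited.

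The coding sequence of the basic region is shown for both MARCKS genes because it is the site where the kinases and these substrates meet. It was located as the stretch of 25 codons with the most lysine and arginine codons in each listed transcript (GENCODE M21, GRCm38), and capitals mark the serine codons. In Marcks it lies in exon 2 of 2, at chr10:37136531-37136605 on the minus strand, and in Marcksl1 in exon 2 of 2, at chr4:129514885-129514959 on the plus strand.
Marcks: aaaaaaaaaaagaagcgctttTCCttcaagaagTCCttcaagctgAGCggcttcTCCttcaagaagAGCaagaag
Marcksl1: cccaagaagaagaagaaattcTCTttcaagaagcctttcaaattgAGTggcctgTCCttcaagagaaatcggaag
The stretch held 13 lysine or arginine codons in Marcks and 12 in Marcksl1, and no acidic codon in either (0 of 25). Serine codons numbered 5 in Marcks and 3 in Marcksl1. Base for base, 52 of 75 positions were equal, and 18 of 25 codons encoded the same amino acid.

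The pseudosubstrate coding stretches are shown, with the alanine codon in capitals, because they encode the segment that holds each kinase inactive. Each was found as the only match, within the first 200 codons, to a pattern of codons (arginine, then lysine, arginine or glutamine, then glycine or arginine, then alanine, then any codon, then arginine or lysine), and runs over 13 codons of GRCm38 sequence. For Prkca it lies at chr11:108343575-108343613 in exon 1, for Prkcb at chr7:122289399-122289437 in exon 1, for Prkcd at chr14:30607368-30607406 in exon 5, for Prkce at chr17:86474361-86474399 in exon 3, for Prkch at chr12:73691583-73691621 in exon 3, for Prkci at chr3:31029488-31029526 in exon 5 and for Prkcz at chr4:155300975-155301013 in exon 5 of the longest coding transcript.
Prkca: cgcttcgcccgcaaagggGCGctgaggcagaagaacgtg
Prkcb: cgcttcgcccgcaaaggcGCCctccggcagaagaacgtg
Prkcd: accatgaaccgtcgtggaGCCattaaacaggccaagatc
Prkce: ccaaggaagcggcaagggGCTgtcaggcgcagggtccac
Prkch: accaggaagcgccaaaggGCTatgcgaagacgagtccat
Prkci: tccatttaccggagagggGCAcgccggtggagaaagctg
Prkcz: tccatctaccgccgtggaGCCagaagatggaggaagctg
The classical pair Prkca and Prkcb encoded the same amino acid at 13 of 13 codons with 35 of 39 bases equal, and the atypical pair Prkci and Prkcz at 13 of 13 codons with 28 of 39 bases equal. Within the calcium-independent class, Prkce and Prkch had the same amino acid at 10 of 13 codons, whereas Prkcd and Prkce had it at 3 of 13.

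The study set 3 clones with a double knockout of PKA, the cyclic AMP-dependent kinase (PKA dKO by their labels), against 3 control clones, all made from the mpkCCDc11 line, with 1 RNA library per clone. Both groups spent 4 days on permeable supports in 2% serum and supplements and then 3 days in serum-free medium with 0.1 nM dDAVP, a vasopressin analog that acts on the V2 receptor and thereby raises cyclic AMP. Which genes were edited, and what the control clones carry, is not stated in the labels. Each line grew from 1 clone, so clonal differences cannot be told apart from the knockout within a single line. CPM are reads per 1 000 000 reads of a library on the listed genes, after TMM scaling between libraries. Prkaca, which encodes the PKA catalytic subunit alpha, had 6.65, 8.49 and 7.44 CPM in dKO clones 1, 2 and 3, against 133, 75.8 and 90.6 CPM in control clones 1, 2 and 3.

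Reads on the listed genes numbered 30541578 to 38760162 per library in dKO clones and 28596444 to 42515838 in control clones. They made up 48.1% and 48.7% of the library totals implied by the deposited FPKM values in dKO clone 3 and control clone 1. In the other clones this share was 31.7% to 39.9% (dKO) and 31.7% to 38.7% (control). dKO clone 3 and control clone 1 stood apart: they had no read on 2363 and 2443 genes, against 967 to 1045 in the other dKO clones and 863 to 965 in the other control clones. Results below are therefore also given for the 4 remaining libraries. The 7 epithelial markers, such as Cdh1 and Krt8, summed to 4515 to 5074 CPM in dKO clones and 4963 to 5655 CPM in control clones. Of these 7, 2 had groups that did not overlap, against 10.8% of all genes tested. They were Krt18 (1530 to 1835 CPM in dKO clones, 1925 to 1967 CPM in control clones) and Krt19 (168 to 218 CPM and 228 to 246 CPM). None of the 7 passed the limma-trend test described next. The principal-cell water channel Aqp2, a defining marker, was at 1.82 to 3.39 CPM in dKO clones and 140 to 399 CPM in control clones, and was the 1 of 8 principal-cell markers that passed the limma-trend test over all genes (Benjamini-Hochberg adjusted p under 0.05), lower in dKO clones. Of the 8 markers, 5 had a positive and 3 a negative log2 fold change, with a median of 0.01. All 8 summed to 400 to 479 CPM in dKO clones and 532 to 935 CPM in control clones. The 7 other than Aqp2 summed to 398 to 475.5 CPM in dKO clones and 375 to 536 CPM in control clones, so these sums overlapped. By single gene, 3 of the 8 had groups that did not overlap, against 10.8% of all genes tested. These were Aqp2, Aqp4 and Avpr2, each lower in dKO clones. Aqp4 had 0.14 to 0.51 CPM in dKO clones and 1.18 to 10.85 CPM in control clones. Avpr2 had 44.7 to 50.3 CPM in dKO clones and 51.9 to 62.2 CPM in control clones. The 7 fibroblast markers in the table summed to 2.25 to 6.14 CPM in dKO clones and 1.91 to 8.22 CPM in control clones, so the groups overlapped and no marker was above 2.06 CPM in any library. The 5 endothelial markers summed to 0.98 to 5.29 CPM in dKO clones and 1.66 to 5.50 CPM in control clones. The 4 leukocyte markers summed to 35.1 to 69.1 CPM in dKO clones and 37.7 to 61.3 CPM in control clones, mostly from Csf1r, with the pan-leukocyte gene Ptprc at 0.84 to 2.04 CPM in dKO clones and 2.05 to 3.67 CPM in control clones. Intercalated-cell markers summed to 18.0 to 44.5 CPM in dKO clones and 24.4 to 44.1 CPM in control clones, mostly from Atp6v1b1, with Atp6v1g3 at 0 in dKO clone 3 and at most 0.55 CPM in any library.

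Marcks was the member in which the groups lay furthest apart. It had 17.1, 76.0 and 63.7 CPM in dKO clones 1, 2 and 3, against 6.14, 2.13 and 5.00 CPM in control clones 1, 2 and 3. Every dKO clone was thus above every control clone, with dKO clone 1 much closer to the controls than the other dKO clones were. Behind these values stood 687, 2399 and 2270 reads in dKO clones, against 222, 65 and 217 reads in control clones, so the values do not rest on a few reads. The means were 52.3 ± 31.1 CPM in dKO clones and 4.42 ± 2.07 CPM in control clones (SD, n = 3 each). The fitted difference was 10.7-fold, with a 95% interval of 4.83 to 23.6, or 3.42 on the log2 scale (SE 0.52). In bulk RNA, more cells with Marcks RNA and more Marcks RNA per cell cannot be told apart.

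The gene (ENSMUSG00000069662.5; transcript ENSMUST00000092584.5) is protein-coding and lies on GRCm38 chromosome 10, 37133375 to 37138920, minus strand, with 2 exons. Only 7 of its 3999 distinct stretches of 50 bases occur in transcripts of other genes (0.175%), and no other annotated gene overlaps its exons. Its reads are therefore little exposed to sharing with other genes.

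The size of the Marcks difference held across the libraries that stood apart. Its log2 fold change was 3.45 within dKO clones 1 and 2 and control clones 2 and 3, and dKO clone 3 exceeded control clone 1 by 3.36. The median gene of chromosome 10 deviated from its 6-library mean by -0.07 in dKO clone 3 and by -0.22 in control clone 1 on the log2 scale, and with such chromosome medians removed Marcks still stood at 3.39. Leaving out 1 library at a time gave 2.96 (without control clone 2) to 4.09 (without dKO clone 1).

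**Figure D1:**
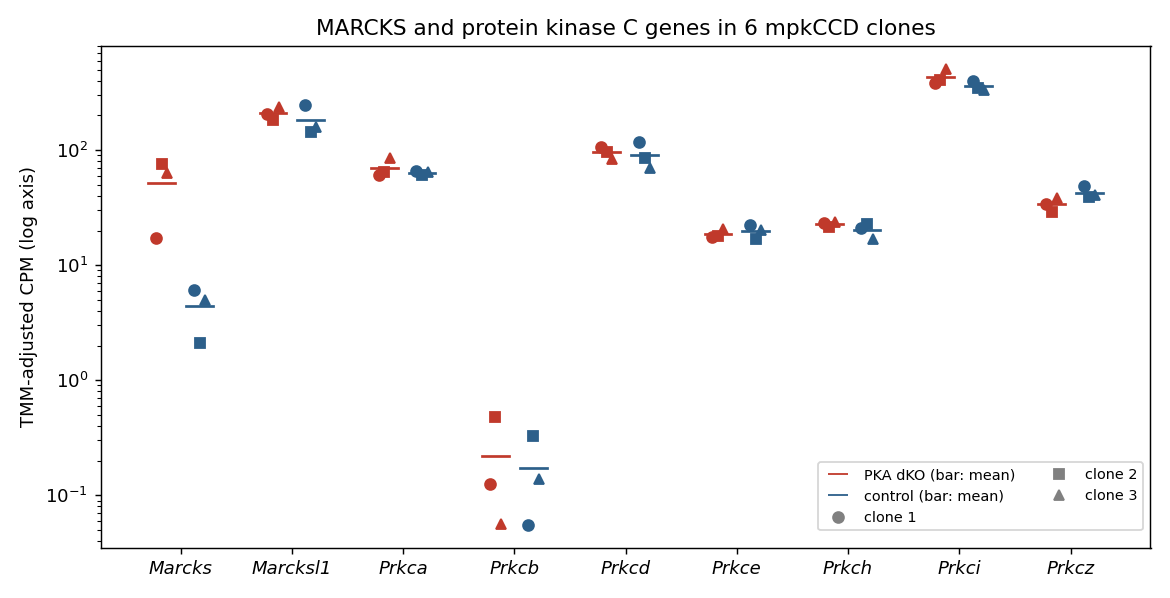
TMM-adjusted CPM of the 9 genes on a log axis; each point is the library of 1 clone, red for PKA dKO and blue for control, and bars are group means. Marcks separates the groups, at 17.1 to 76.0 CPM in dKO clones and 2.13 to 6.14 CPM in control clones, while the other genes lie at similar levels in both and Prkcb stays under 0.48 CPM everywhere.

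Across all 16683 genes tested, 28 were called between the groups (0.168%; limma-trend, Benjamini-Hochberg adjusted p under 0.05), 9 of them higher in dKO clones (0.0539%). Marcks was among these 9 and none of the other 7 members tested was called. Because this contrast had a part in choosing the family, nothing is read from that count. The call of Marcks was lost in 5 of 19 alternative settings, namely with limma-voom, with library totals in place of TMM factors, with a filter at a mean of 1 CPM, without dKO clone 2 (log2 fold change 3.02) or with chromosome medians removed. In the authors' deposited edgeR table, which lists 10190 genes and calls 354 of them (3.47%), Marcks is listed with a log2 fold change of 3.57. The same authors' deposited table gives the 7 other members it lists fold changes of -0.36 (Prkcz) to 0.23 (Prkci), and does not list Prkcb.

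Clones of the same group also differed more in Marcks than in most genes. The standard deviation of its log2 level was 1.17 among dKO clones, where the median gene tested had 0.23, and 0.80 among control clones, where the median gene had 0.29. Its highest clone exceeded its lowest 4.43-fold among dKO clones and 2.84-fold among control clones.

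Marcksl1, the relative of MARCKS with the same kind of basic region, differed far less. It had 205, 184 and 237 CPM in dKO clones 1, 2 and 3, against 247, 142 and 157 CPM in control clones 1, 2 and 3. The groups overlapped, because control clone 1 was the highest of all 6 libraries. The means were 209 ± 26.6 CPM in dKO clones and 182 ± 56.5 CPM in control clones (SD, n = 3 each), a log2 fold change of 0.23 with a 95% interval of -0.20 to 0.66. Within the 4 libraries it was 0.38, while dKO clone 3 differed from control clone 1 by -0.06.

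Marcksl1 (ENSMUSG00000047945.6; transcript ENSMUST00000062356.6, chromosome 4, 129513581 to 129515985, plus strand, 2 exons) was the most abundant of the 9 genes in all 6 libraries when levels were set per length. It reached 130 ± 16.6 CPM per kilobase in dKO clones and 114 ± 35.3 in control clones. Marcks had 12.9 ± 7.68 CPM per kilobase in dKO clones and 1.09 ± 0.51 in control clones. Marcksl1 thus exceeded Marcks 30.2-, 6.13- and 9.40-fold per length in dKO clones 1, 2 and 3, against 101-, 169- and 79.5-fold in control clones 1, 2 and 3. Of the summed per-length level of both genes, Marcks made up 3.20%, 14.0% and 9.62% in dKO clones, against 0.98%, 0.59% and 1.24% in control clones. Marcksl1 RNA therefore remained the larger share of the pair in every clone. Of its 1556 distinct stretches of 50 bases, 25 (1.61%) also occur in transcripts of other genes, most of them in the processed pseudogene Gm9089.

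**Figure D2:**
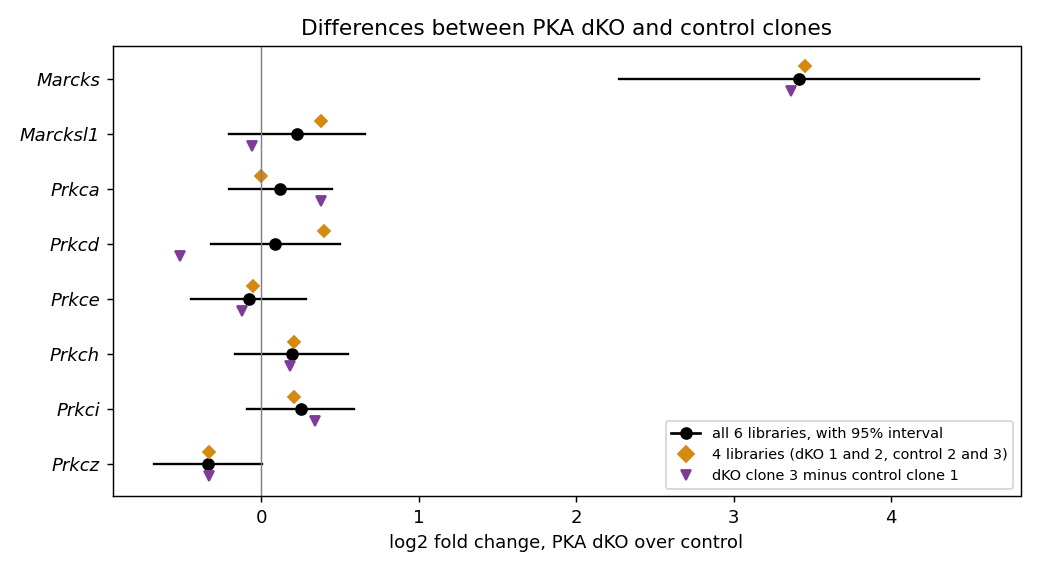
Fitted log2 fold changes, PKA dKO over control, of the 8 members that passed the filter. Black points with lines are values and 95% intervals from all 6 libraries, orange diamonds the 4 libraries other than dKO clone 3 and control clone 1, and purple triangles dKO clone 3 minus control clone 1; Marcks stands at 3.42, the other 7 lie between -0.34 and 0.25, and Prkcd moves most between the library sets.

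The atypical isoforms included the most abundant kinase of the family. Prkci, which encodes PKC iota, the catalytic partner of PAR6 in apical polarity complexes, had 380, 403 and 509 CPM in dKO clones 1, 2 and 3, against 401, 346 and 334 CPM in control clones 1, 2 and 3. The groups overlapped through control clone 1. The means were 431 ± 69.0 CPM in dKO clones and 361 ± 35.8 CPM in control clones (SD, n = 3 each), a log2 fold change of 0.25 with a 95% interval of -0.09 to 0.59. Prkci (ENSMUSG00000037643.14; transcript ENSMUST00000108249.8, chromosome 3, 30995747 to 31052959, plus strand, 18 exons) drew 10575 to 18156 reads per library.

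Prkcz, which encodes the other atypical isoform, PKC zeta, lay in the opposite direction. It had 34.0, 28.8 and 38.6 CPM in dKO clones 1, 2 and 3, against 48.6, 38.9 and 40.4 CPM in control clones 1, 2 and 3. All dKO clones were below all control clones, by a narrow margin between dKO clone 3 and control clone 2. Among all genes tested, 10.8% had groups that did not overlap; among the 8 members tested, Marcks and Prkcz did so. The Prkcz means were 33.8 ± 4.92 CPM in dKO clones and 42.6 ± 5.25 CPM in control clones (SD, n = 3 each), a log2 fold change of -0.34 whose 95% interval ran from -0.68 to 0.00. Both the 4 libraries and the comparison of dKO clone 3 with control clone 1 gave -0.33.

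The Prkcz value needs care for what was counted. The listed transcript (ENSMUST00000103178.10; gene ENSMUSG00000029053.16, chromosome 4, 155260129 to 155345772, minus strand, 15 exons) starts inside the gene and codes for 409 codons, whereas the longest coding transcript of the gene in GENCODE M21 has 592 codons and 473 exonic bases outside the listed exons. The pseudosubstrate stretch shown above is not part of the listed transcript's coding sequence. A short zeta form without the regulatory region is known in brain as PKM zeta. Reads in exons that both forms share were not separated here, so the value does not describe 1 form. It is not limited to shared exons either. The listed transcript has 4083 exonic bases and the longest coding transcript 2641, so the listed exons include bases that the latter lacks. In addition, 743 of its 4034 distinct stretches of 50 bases (18.4%) also occur in the processed pseudogene Prkcz2. The sources used here do not say how reads mapping to both were treated.

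Set per length, Prkci exceeded Prkcz 9.71-, 12.2- and 11.5-fold in dKO clones 1, 2 and 3, against 7.16-, 7.72- and 7.18-fold in control clones 1, 2 and 3. The ratio was higher in every dKO clone than in any control clone; it was formed after the values were seen and was not tested.

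Within the calcium-independent class, Prkcd was the highest. It encodes PKC delta and had 107, 96.3 and 83.0 CPM in dKO clones 1, 2 and 3, against 119, 85.8 and 69.6 CPM in control clones 1, 2 and 3. The groups overlapped fully, with means of 95.4 ± 12.0 CPM in dKO clones and 91.3 ± 24.9 CPM in control clones (SD, n = 3 each). The log2 fold change was 0.09 with a 95% interval of -0.32 to 0.50. Within the 4 libraries it was 0.40, but dKO clone 3 differed from control clone 1 by -0.51.

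Prkcd (ENSMUSG00000021948.17; transcript ENSMUST00000112210.9, 30595356 to 30626208, minus strand, 18 exons in a newer version of this transcript) lies on chromosome 14. Its median gene deviated by -0.44 in dKO clone 3 and by 0.28 in control clone 1 on the log2 scale, the lowest and the highest of the 6 libraries. With chromosome medians removed the Prkcd fold change was 0.30. Prkcd was lowest among dKO clones in dKO clone 3 and highest of all 6 libraries in control clone 1. Its lowest value of all, however, was in control clone 3 (69.6 CPM), where the chromosome median was -0.03. The part of chromosome dosage in the Prkcd values was not tested.

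The other calcium-independent isoforms were lower and varied little. Prkch, which encodes PKC eta, an isoform known from epithelia, had 23.3, 21.6 and 23.9 CPM in dKO clones 1, 2 and 3, against 21.1, 22.6 and 16.8 CPM in control clones 1, 2 and 3 (log2 fold change 0.19, 95% interval -0.16 to 0.55). Prkce, which encodes PKC epsilon, had 17.5, 17.9 and 20.5 CPM in dKO clones 1, 2 and 3, against 22.3, 16.9 and 20.1 CPM in control clones 1, 2 and 3 (log2 fold change -0.08, 95% interval -0.44 to 0.29). In both genes the groups overlapped. Prkch (ENSMUSG00000021108.18; ENSMUST00000021527.14) lies on chromosome 12, 73584797 to 73778185, plus strand, with 14 exons. Prkce (ENSMUSG00000045038.14; ENSMUST00000097275.8) lies on chromosome 17, 86167785 to 86657919, plus strand, with 15 exons.

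The classical isoforms were represented almost entirely by Prkca. It encodes PKC alpha and had 60.7, 64.0 and 86.0 CPM in dKO clones 1, 2 and 3, against 65.9, 61.0 and 64.3 CPM in control clones 1, 2 and 3. The control clones lay close together, with a standard deviation of 0.06 on the log2 scale, and dKO clone 3 alone lay above all of them. The means were 70.3 ± 13.8 CPM in dKO clones and 63.8 ± 2.49 CPM in control clones (SD, n = 3 each), a log2 fold change of 0.12 with a 95% interval of -0.21 to 0.45. Without dKO clone 3 the fold change was -0.03. Prkca (ENSMUSG00000050965.14; ENSMUST00000059595.10, chromosome 11, 107933387 to 108343928, minus strand, 17 exons) shares 30 exonic bases with Apoh on the opposite strand, 0.357% of its exonic bases.

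Prkcb, which encodes PKC beta, was barely covered. It had 5, 15 and 2 reads in dKO clones 1, 2 and 3, against 2, 10 and 6 reads in control clones 1, 2 and 3, or at most 0.48 CPM, and did not pass the filter. No fold change is given, because a library that holds 2 reads cannot show a difference at this depth. The lowest values fell in dKO clone 3 and control clone 1, the libraries with the most genes without a read. Prkcb (ENSMUSG00000052889.11; ENSMUST00000064921.4) lies on chromosome 7, 122289309 to 122634402, plus strand, with 17 exons, and shares no stretch of 50 bases with Prkca or any other gene's transcripts (0 of 2508).

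Per length, the order of the 9 genes in dKO clones was Marcksl1, Prkci, Prkcd, Marcks, Prkca, Prkcz, Prkch, Prkce and Prkcb, and in control clones Marcksl1, Prkci, Prkcd, Prkcz, Prkca, Prkch, Prkce, Marcks and Prkcb. Marcks therefore held place 4 by its mean in dKO clones (place 7 in dKO clone 1 and 4 in the others) and place 8 in each control clone. In dKO clones the ranges of the neighbours Marcks and Prkca overlapped, as did those of Prkca and Prkcz. Marcks, at 4.23 to 18.8 CPM per kilobase, also overlapped Prkcz (7.11 to 9.53) and Prkch (6.14 to 6.81), which are not its neighbours. The order of Marcks among these genes, and of Prkca and Prkcz, is thus not resolved. The other neighbours in dKO clones and every pair of neighbours in control clones had ranges that did not overlap. Some margins were narrow: Marcksl1 was at least 89.0 CPM per kilobase in control clones, where Prkci reached 85.9. Such an order also depends on the listed transcript lengths.

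The 7 PKC isoforms together had 146, 145 and 169 CPM per kilobase in dKO clones 1, 2 and 3, against 159, 132 and 123 CPM per kilobase in control clones 1, 2 and 3, with overlapping groups. Atypical isoforms made up 65.3 ± 4.29% of this sum in dKO clones and 63.9 ± 2.39% in control clones (SD, n = 3 each). Calcium-independent isoforms made up 29.2 ± 4.83% in dKO clones and 30.4 ± 3.05% in control clones, and classical isoforms 5.49 ± 0.54% in dKO clones and 5.64 ± 0.67% in control clones. By single isoform, Prkci held 59.9 ± 4.28% in dKO clones and 56.2 ± 2.09% in control clones, and Prkcz held 5.42 ± 0.47% in dKO clones and 7.66 ± 0.43% in control clones. Prkcz shares did not overlap between the groups, at 4.88% to 5.76% in dKO clones and 7.29% to 8.13% in control clones. Prkce shares did not overlap either, at 1.935% to 1.976% in dKO clones and 2.066% to 2.631% in control clones. Shares of the other isoforms overlapped. For levels, 10.8% of all genes tested had groups that did not overlap. No such background was computed for shares, and the shares were not tested. Shares of 1 sum depend on each other, so a higher share of Prkci lowers the rest.

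**Figure D3:**
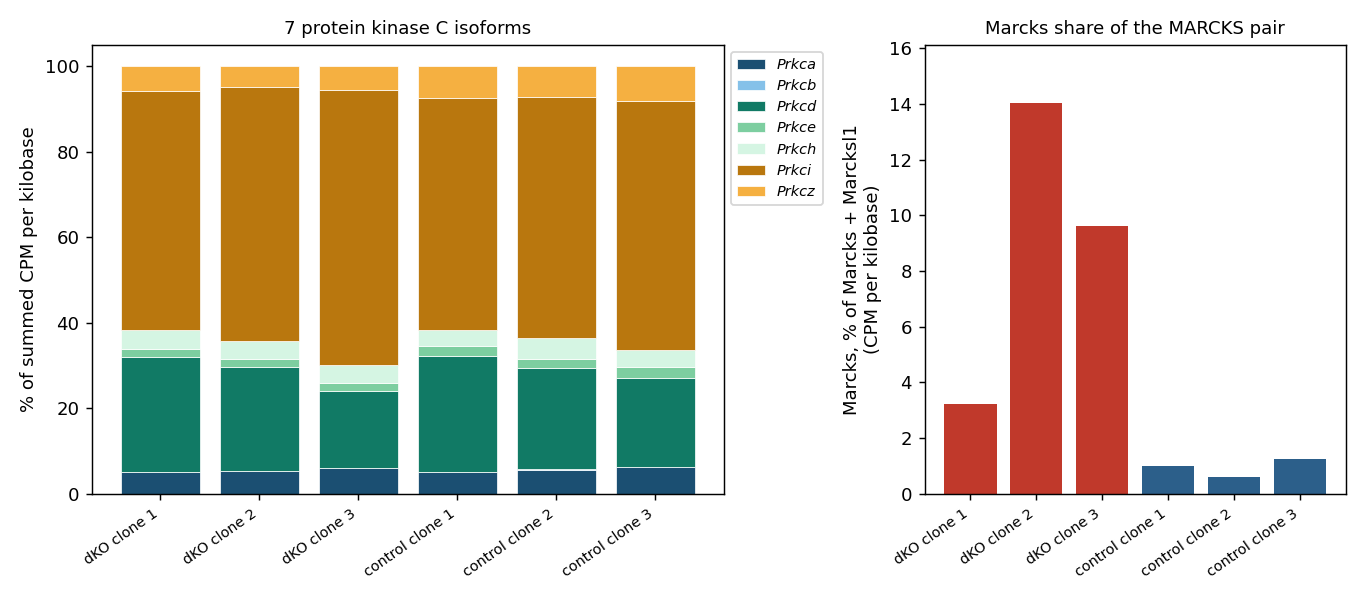
Left, share of each PKC isoform in the summed CPM per kilobase of 7 isoforms, 1 bar per clone; right, share of Marcks in the sum of Marcks and Marcksl1. Prkci takes 54.1% to 64.4% and Prkcd 17.9% to 27.3% of the PKC sum over the 6 clones, and Marcks takes 3.20% to 14.0% of its pair in dKO clones and 0.59% to 1.24% in control clones.

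Of the 8 members tested, 6 had a positive and 2 a negative fold change, with a median of 0.16 beside a median of -0.0015 over all genes tested. Apart from Marcks the fold changes ran from -0.34 to 0.25 on the log2 scale, and each 95% interval included 0. The outermost bounds were -0.68 for Prkcz and 0.66 for Marcksl1, so differences of that size lie within the intervals of these 2 genes.

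The genes whose pattern over the 6 libraries was closest to that of Marcks were found by the root mean square difference of log2 levels after centring. The search covered 10444 genes with a mean of at least 2 CPM and left out predicted and clone-named gene models. The closest was Rhcg, whose product carries ammonia in collecting duct cells, at 0.80, followed by Pvrl3 (nectin 3, an adhesion protein) at 0.95, Rasl11a (a small GTPase of the Ras family), Lars2 (mitochondrial leucyl-tRNA synthetase) and Ggt1 (gamma-glutamyltransferase). For scale, a flat gene would lie at 1.90 from Marcks, so even Rhcg was only roughly alike. Rhcg had 25.3, 78.0 and 147 CPM in dKO clones 1, 2 and 3, against 6.09, 2.03 and 1.80 CPM in control clones 1, 2 and 3. Rhcg and Marcks shared the low value of dKO clone 1 among dKO clones and the high value of control clone 1 among control clones, but dKO clone 3 was the highest for Rhcg and dKO clone 2 for Marcks. Pvrl3 had 13.1, 21.2 and 20.2 CPM in dKO clones and 3.49, 3.63 and 6.31 CPM in control clones.

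**Figure D4:**
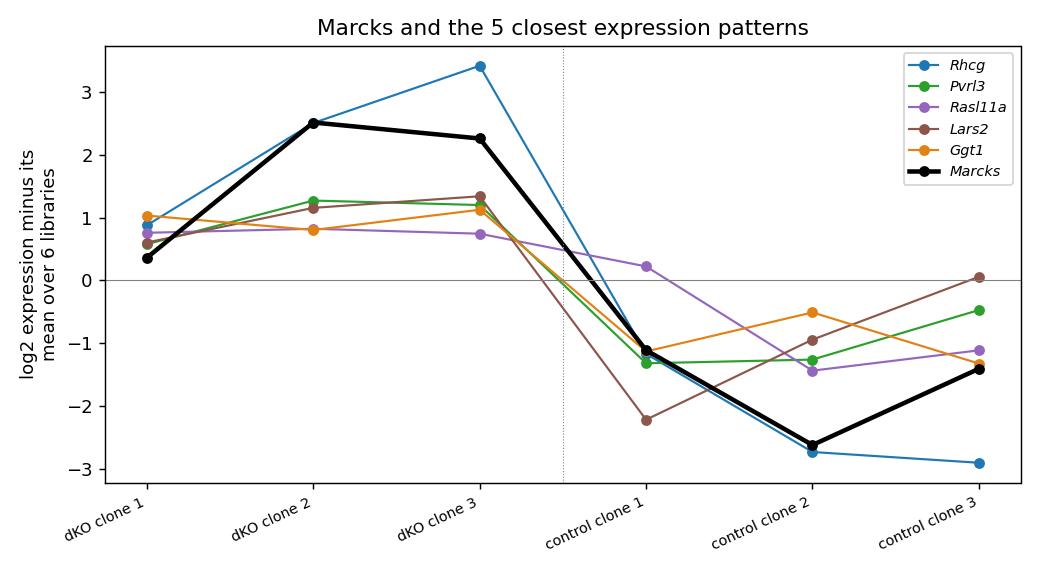
Log2 expression minus its mean over the 6 libraries for Marcks (thick black line) and the 5 genes with the closest pattern among those searched, with PKA dKO clones on the left and control clones on the right. Marcks spans -2.61 in control clone 2 to 2.51 in dKO clone 2, and Rhcg alone of the 5 has a span as wide.

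The genes around PKC signalling were examined in 6 lists with 77 symbols, 1 gene standing under both of its names. The table held 73 of them and all 73 were tested. None was called (0 of 73; limma-trend, adjusted p under 0.05; 0.168% of all genes were called). The edgeR quasi-likelihood test also called 0, and DESeq2 called 1, Pip5k1b. An unadjusted p under 0.05 was found for 1 higher and 6 lower genes, against 6.24% of all genes tested. The median log2 fold change over the 73 was -0.03.

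The remaining kinases of the PKC superfamily did not pass. The isoform gene Prkcq (theta) was near the bottom of the range, at 0.17 to 0.75 CPM in dKO clones and 0.17 to 1.57 CPM in control clones. Protein kinase D genes, whose products PKC activates, had 114 ± 9.55 CPM in dKO clones and 104 ± 23.1 CPM in control clones for Prkd3, and 13.2 ± 0.82 CPM in dKO clones and 16.0 ± 4.87 CPM in control clones for Prkd2 (SD, n = 3 each).

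Upstream, 0 of 15 genes of Gq proteins and phospholipase C, the enzymes that make diacylglycerol, and 0 of 10 diacylglycerol kinases, which remove it, passed. Plcg2 (phospholipase C gamma 2) had 44.3, 37.6 and 52.6 CPM in dKO clones, against 87.8, 49.4 and 67.3 CPM in control clones (limma adjusted p = 0.546 for a log2 difference of -0.58 ± 0.20, SE). Plch2 stood at -0.48 (limma adjusted p = 0.682). Dgka (diacylglycerol kinase alpha) had 63.9, 52.5 and 55.0 CPM in dKO clones, against 84.2, 80.5 and 72.1 CPM in control clones. Its groups did not overlap, at a log2 difference of -0.47 ± 0.13 (SE), and its limma adjusted p of 0.332 was the lowest of the 73 genes. Dgkq stood at 0.16.

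Among genes of PKC maturation, docking and turnover, 0 of 12 passed. Rictor, a subunit of the mTORC2 complex that phosphorylates PKC as it matures, had 167, 175 and 181 CPM in dKO clones, against 227, 216 and 201 CPM in control clones (log2 fold change -0.30; limma adjusted p = 0.674). Ywhaz (14-3-3 zeta) had 170, 178 and 197 CPM in dKO clones, against 263, 215 and 211 CPM in control clones (log2 fold change -0.34; limma adjusted p = 0.677). Both lie on chromosome 15, whose genes had medians of -0.05 to -0.04 in dKO clones and -0.02 to 0.18 in control clones; with these removed the fold changes were -0.17 and -0.21. Whether chromosome dosage has a part in these differences was not tested.

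Partners of the atypical isoforms in polarity and scaffolding gave 0 calls of 9 genes tested. Pard6a (PAR6 alpha) stood at a log2 fold change of -0.39 and the scaffold gene Sqstm1 (p62) at -0.22.

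Of 19 PKC substrates and phosphoinositide- or calmodulin-binding relatives of MARCKS, 0 passed. Pip5k1b, a kinase that makes the phosphoinositide bound by MARCKS, had 4.03, 4.43 and 11.3 CPM in dKO clones, against 2.60, 2.29 and 2.56 CPM in control clones (limma adjusted p = 0.439 for a log2 difference of 1.23 ± 0.39, SE). Its groups did not overlap, but dKO clone 3 lay far above the other dKO clones. Basp1, which encodes a myristoylated membrane protein with a basic region, had 130, 118 and 155 CPM in dKO clones, against 218, 156 and 167 CPM in control clones (limma adjusted p = 0.618 for a log2 difference of -0.42 ± 0.16, SE). With chromosome medians removed the Basp1 difference was -0.29.

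**Figure D5:**
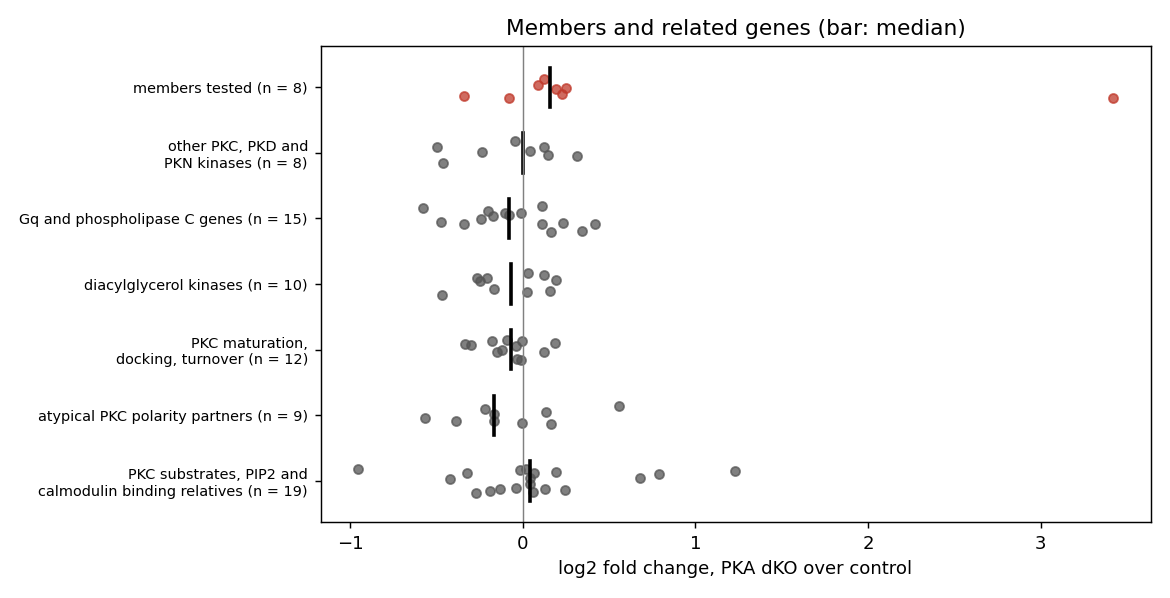
Log2 fold changes, PKA dKO over control, of the 8 members tested (red) and of 73 related genes in 6 lists (grey), with a black bar at each median. Marcks at 3.42 is the point far to the right; the related genes lie between -0.95 and 1.23 and none was called.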

How the data were processed

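Total RNA of 6 clones was depleted of ribosomal RNA and made into stranded libraries, per the labels' protocols. Per the submitters' processing notes, the build was GRCm38.p5 and the tools included HOMER 4.8, edgeR, STAR 2.5.2a and SAMtools; how strand and multi-mapping reads were handled is not stated there. The deposited read columns hold a signal that the authors scaled to 1 total per library, and whole reads were recovered for 100% of values (tolerance 0.01 scaled reads). Deposited FPKM values served only to infer library totals and were not used for comparisons of genes. The authors' deposited comparison table gives log2 fold changes and p-values.

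Limma-trend (limma 3.58.1, R 4.3.3) was fitted on log2 of scaled reads with TMM factors (edgeR 4.0.16; 0.909 to 1.07) and a pseudocount of 1 scaled read (0.055 CPM), which understates changes of low genes. It covered 16683 genes kept by filterByExpr (minimum 10 reads, total 15), over all 6 libraries, group being the sole term, and was tested on simulated data. There it called 16.4% of genes changed 1.5-fold, 68.7% of those changed 2-fold and 81.8% of those changed 4-fold, and 6 of 117 calls were false. The changed genes were drawn only from those with a mean above 1 CPM. Counts were drawn independently, without the split between libraries seen in the data. The rates thus do not cover lower genes or that split. The absence of a call therefore does not show that a gene was unchanged, least of all for small differences. CPM values are recovered reads over TMM-adjusted totals. The replicates are separate clonal lines, so p-values set the group difference against the spread between clones within groups. With 1 library per clone, that spread does not separate clonal from technical differences. Members and lists were chosen with earlier results of these data known. Of each related list, genes past the threshold or else the 2 with the lowest p were named; Prkcq was named outside that rule. A result on 1 related gene is not reported here. Counting intervals were not used. Exons and sequences come from GENCODE M21 (GRCm38); RefSeq promoters were not used here. Alternatives included DESeq2 1.42.0 and those in the closing section.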

Additional observations from a re-analysis of the deposited data

How the results depend on the processing

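The log2 fold change of Marcks ran from 2.96 to 4.09 over 19 alternatives, and each value moved by less than the standard deviation between clones. It was positive in 19 of 19, but every dKO clone lay above every control clone. Leaving out libraries could therefore not reverse the sign, and nothing is read from its constancy. Some alternatives could not move a fold change. The replicate block and the library split as a term are balanced over the groups, and the filter at 1 read kept the same TMM factors. In these settings every member kept its main value, 3.42 for Marcks, so they say nothing about its stability. The Prkcd fold change moved beyond that spread within the 4 libraries other than dKO clone 3 and control clone 1 (0.40). Prkca, Prkcd and Prkce, close to 0, changed sign in 1 leave-one-out fit each. Of 152 alternative values of the members, 151 moved by less than their standard deviation between clones, a count that includes the values that could not move. The count of genes called across the table, 28, was 213 with DESeq2, 17 with library totals alone, 518 within the 4 libraries and 71 with that library split added to the model. Leaving out 1 library at a time gave 11 to 146 calls. Among the related genes DESeq2 called 1 (Pip5k1b, adjusted p = 0.0480) and every other setting 0. With the clone number as a replicate block 196 genes were called. Deviations from the group means correlated between same-numbered clones at -0.36, 0.64 and -0.34 for clones 1, 2 and 3. Not every clone correlated best with its own number: dKO clone 3 and control clone 1, which stood apart, correlated at 0.66. Deviations from a mean of 3 clones depend on each other, so these values cannot decide whether same-numbered clones belong together. The cause of these shifts in calls was not tested. Depth limits Prkcb, with 2 to 15 reads per library.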
